A study of Mus musculus with 19 samples.

Results

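The stefin A cluster is a tandem array of closely related genes on mouse chromosome 16 that encode small cystatins. Its members were taken as the gene rows whose symbol begins with Stfa or Cstdc and that hold at least 10 counts over all libraries, which gave 7 of the 18521 rows. Of these, 6 lie in the cluster (Cstdc4, Cstdc5, Cstdc6, Stfa2, Stfa2l1 and Stfa3) and are described below. The seventh, Cstdc2, lies on chromosome 2, carried 67 counts and was not tested, and it is kept apart. Just under the threshold, Stfa1 of the cluster held 8.97 counts, and Cstdc1 on chromosome 2 held 2. Members were thus chosen by their symbol and by their counts summed over all groups, and these counts came mostly from treated skin: 81.4% of the counts of Cstdc5 and 86.9% of those of Stfa3 were in the vismodegib libraries. Each of the 6 also exceeded 10 counts in the BCC libraries alone, where Cstdc4 and Stfa2l1 had 23 each. Cstdc4 and Stfa2l1 nevertheless passed the low-count filter of the test only through treated skin. With healthy and BCC mice alone in the fit, 4 of the 6 members were tested, and Cstdc4 and Stfa2l1 were not. The cluster was singled out with results of these data known, so the counts of members below describe them and support nothing further.

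RNA was measured in whole skin of female mice. The strain of all 4 groups is Ptch1+/- K14-CreER2 p53fl/fl, that is, 1 working copy of the Hedgehog receptor gene Ptch1, floxed p53, and a Cre recombinase that the keratin 14 promoter drives in keratinocytes and tamoxifen activates. Healthy skin came from 5 mice aged 128 to 137 days that received neither tamoxifen nor x-rays. Basal cell carcinoma (BCC) skin came from 4 mice, aged 278 to 320 days, 130 to 144 days after induction with 3 injections of 300 µg tamoxifen and 1 irradiation of 4 Gy. Induced skin treated with ablative fractional laser (AFL), which burns a grid of microscopic columns into the skin, came from 3 mice aged 228 to 326 days, 80 to 126 days after induction, with 1 pass at 5% density and 40 mJ per microbeam. Induced skin treated with vismodegib, an inhibitor of the Hedgehog signal transducer Smoothened, came from 4 mice aged 268 to 326 days, 109 to 137 days after induction, with 8 treatments. All skin was labelled day 4, and mice given a sham laser or a vehicle were not analysed here. Age and induction changed together and cannot be told apart.

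Stefins are intracellular cystatins that block papain-like cysteine proteases such as cathepsins B, L, H and S by inserting into the active site. Humans carry a single stefin A gene, CSTA, which is abundant in stratified epithelium and is part of the cornified envelope, whereas the mouse locus has expanded into many copies. Mouse stefin A genes are known from epidermis and from myeloid cells, neutrophils among them.

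The copies are so similar that short reads cannot always be assigned, and the coding sequences show which members are hard to tell apart. In the GENCODE M21 models on GRCm38 the 6 transcripts have 3 exons each and lie between Stfa2l1 (chr16:36156811-36161953, plus strand) and Stfa3 (chr16:36450537-36455392, minus strand), with Cstdc4 at chr16:36184212-36188111 on the plus strand. Cstdc6 (chr16:36321665-36334332), Cstdc5 (chr16:36359382-36367748) and Stfa2 (chr16:36403992-36408457) are on the minus strand. The stretch below runs from base 240 to base 121 before the end of each coding sequence, stop codon left out. It takes 15 bases from exon 1, all 102 from exon 2 and 3 from exon 3. Capitals mark bases that differ from Cstdc5.
Cstdc5: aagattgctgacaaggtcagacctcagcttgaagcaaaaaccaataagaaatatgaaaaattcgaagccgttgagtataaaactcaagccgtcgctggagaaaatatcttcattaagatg
Cstdc6: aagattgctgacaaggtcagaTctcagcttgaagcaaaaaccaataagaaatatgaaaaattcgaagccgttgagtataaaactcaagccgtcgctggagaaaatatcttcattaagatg
Stfa3: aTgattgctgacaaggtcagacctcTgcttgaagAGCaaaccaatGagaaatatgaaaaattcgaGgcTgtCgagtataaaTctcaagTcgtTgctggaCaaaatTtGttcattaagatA
Stfa2: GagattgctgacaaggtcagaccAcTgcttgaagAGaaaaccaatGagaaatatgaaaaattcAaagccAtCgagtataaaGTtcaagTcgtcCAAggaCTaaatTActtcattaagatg
Stfa2l1: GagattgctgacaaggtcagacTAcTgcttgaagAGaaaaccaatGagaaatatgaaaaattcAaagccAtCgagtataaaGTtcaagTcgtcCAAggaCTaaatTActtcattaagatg
Cstdc4: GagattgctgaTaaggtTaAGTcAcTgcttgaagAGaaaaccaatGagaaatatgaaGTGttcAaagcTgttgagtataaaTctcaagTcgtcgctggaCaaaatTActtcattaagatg

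Over these 120 bases Cstdc6 differs from Cstdc5 at 1 position and Stfa2l1 from Stfa2 at 1, whereas Stfa3 differs from Cstdc5 at 16. Over the whole coding sequence, identity was 95.2% for Cstdc5 and Cstdc6, 96.4% for Stfa2 and Stfa2l1, and 78.0% to 81.6% for Stfa3 with Stfa2, Stfa2l1, Cstdc4, Cstdc5 or Cstdc6. Cstdc4 is 96.9% identical to Csta2, a gene of the cluster that was not analysed here. Among the 10 transcripts compared (the 6 members, Stfa1, Csta1, Csta2 and Csta3), the share of a transcript's 50-base words also found in another of them was 30.0% for Cstdc5, 33.7% for Cstdc6, 35.6% for Cstdc4, 14.7% for Stfa2 and 16.8% for Stfa2l1. For Stfa3 it was 0.0%, the lowest of the 6 members. Cstdc3 and Gm7260, which also lie within the cluster, were not compared.

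The deposited values carry a trace of this sharing. Expected counts of Cstdc5 and of Cstdc6 were not whole numbers in 12 of 19 libraries, and in all 12 their sum, with Stfa1 added, was whole within 0.02 counts. The other 4 members were whole in every library. Reads were therefore split between Cstdc5 and Cstdc6, and how much of the Cstdc6 value belongs to Cstdc6 is uncertain. In the 9 libraries of treated skin Cstdc6 took 5.77% to 7.28% of the pair. The sum over the cluster does not depend on this split. Whole counts do not show that Cstdc4 is free of shared reads. Its 96.9% identical copy Csta2 has no row under that symbol in the deposited counts. Whether reads of Csta2 were counted as Cstdc4 was not checked.

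The cluster sum differed in steps between the groups, and no p is given for a sum over chosen members. As CPM, the counts of a gene relative to a library total scaled for composition, it was 4.05, 5.89, 7.40, 3.82 and 7.17 in healthy mice 10, 13, 14, 15 and 16. It was 90.5, 251.7, 170.2 and 23.1 in BCC mice 3, 4, 5 and 8, and 420.1, 792.1 and 1179 in AFL mice 2, 7 and 11. After vismodegib it was 2735, 1285, 16500 and 2794 in mice 1, 6, 9 and 12. No mouse of any group overlapped with a mouse of the next group in this order, which was read from these data. Of all single genes tested, 6.65% did not overlap between BCC and healthy skin, in either direction. The share was 18.8% between AFL and BCC and 22.2% between AFL and vismodegib. The healthy mean was 5.67 ± 1.68 (SD, n = 5) and the BCC mean 133.9 ± 98.9 (n = 4). For laser-treated mice it was 797.2 ± 379.7 (n = 3) and for vismodegib-treated mice 5829 ± 7149 (n = 4). The BCC mean was 23.6 times the healthy mean, the AFL mean 5.96 times and the vismodegib mean 43.5 times the BCC mean. Vismodegib mouse 9 carried most of its group's mean. Without it, the log2 ratio of the vismodegib to the BCC mean was 4.08 in place of 5.44.

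**Figure D1:**
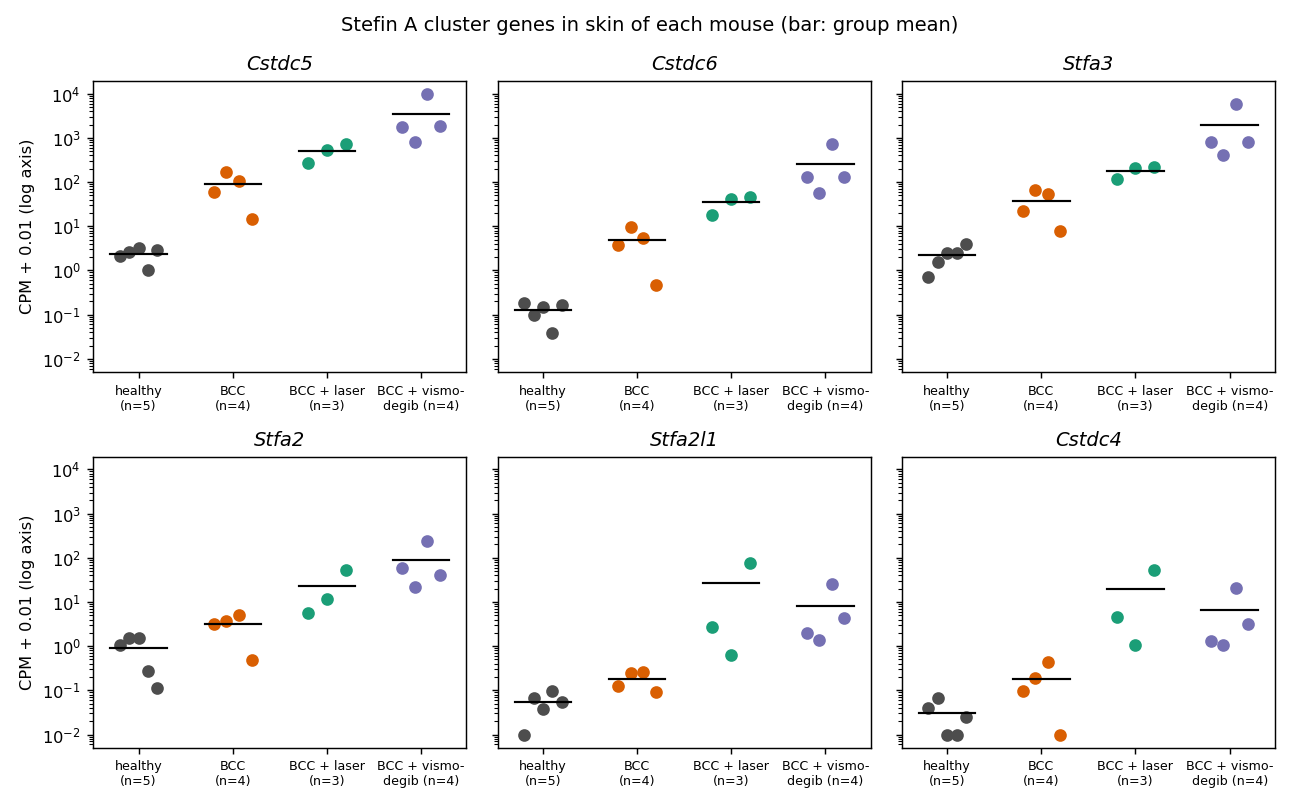
CPM of each cluster member in each mouse by group, on a log axis with 0.01 added so that mice at 0 can be drawn; points are mice and bars are group means. Cstdc5, Cstdc6 and Stfa3 step up from healthy to BCC to laser to vismodegib, whereas Stfa2l1 and Cstdc4 are highest in 1 laser mouse, at 75.5 and 52.7 CPM.

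Cstdc5 and Stfa3 made up the bulk of the signal, whereas Cstdc6 was 0.756% to 5.29% of the cluster CPM. Stfa2 took 25.5%, 25.7% and 20.9% of it in healthy mice 10, 13 and 14. Cstdc5 alone was 58.9% to 68.7% of the cluster CPM in every induced mouse and 26.5% to 51.8% in healthy mice. Per kilobase of transcript, the mean after vismodegib was 5690 CPM for Cstdc5, 4720 for Stfa3 and 664.4 for Cstdc6. On that scale Stfa2 was at 191.5, Stfa2l1 at 19.5 and Cstdc4 at 15.8. The SD over the 4 mice exceeded the mean for each of the 6 genes. That spread does not bear on the order of Cstdc5 and Stfa3 within a mouse, and Cstdc5 was the higher per kilobase in each of the 4 mice. In mouse 6, the lowest, Cstdc5 was at 1276 and Stfa3 at 1003 per kilobase. In mouse 9, the highest, they were at 15700 and 14040. Before scaling for length, Stfa3 was 0.43 to 0.595 of Cstdc5 in these 4 mice.

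**Figure D2:**
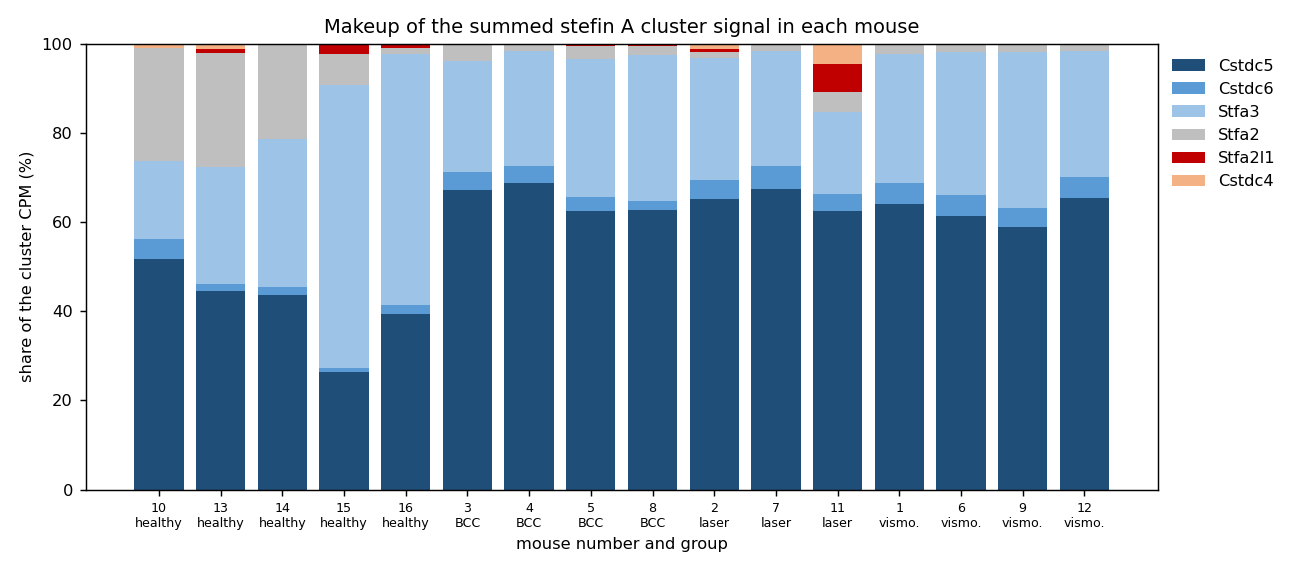
Share of the summed cluster CPM taken by each member, in percent, for each of 16 mice ordered by group. Cstdc5 and Stfa3 fill most of every bar. Stfa2 takes 20.9% to 25.7% in healthy mice 10, 13 and 14. AFL mouse 11 stands out with 6.4% Stfa2l1 and 4.47% Cstdc4.

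BCC skin was compared with healthy skin first, and these groups differ in age as well as in induction. Cstdc5, Cstdc6 and Stfa3 rose, and these are 3 of the 6 members, where 2.66% of all 15760 genes tested rose. Cstdc5 was at 2.10, 2.62, 3.23, 1.01 and 2.82 CPM in healthy mice and at 60.9, 172.9, 106.6 and 14.5 in BCC mice. All 4 BCC mice were above all 5 healthy mice, with BCC mouse 8 lowest. The log2 fold change of Cstdc5 was 5.23 (SE 0.78, adjusted p = 0.00107, edgeR's quasi-likelihood test with Benjamini-Hochberg adjustment, as for every adjusted p below unless another tool is named).

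Stfa3, which shares no 50-base word with the other 9 transcripts compared, was at 0.71, 1.55, 2.46, 2.43 and 4.03 CPM in healthy mice and at 22.5, 64.9, 52.5 and 7.60 in BCC mice. It rose by 4.03 on the log2 scale (SE 0.78, adjusted p = 0.00775), again with no overlap. Cstdc6 rose by 5.27 (SE 0.91, adjusted p = 0.00327), from between 0.0289 and 0.177 CPM to between 0.463 and 9.73. In limma voom the call of Cstdc6 ended (4.68, adjusted p = 0.0745), and without BCC mouse 4 its value was 4.67.

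The remaining 3 members did not pass the test in BCC skin. Stfa2 was at 1.03, 1.52, 1.55, 0.26 and 0.10 CPM in healthy mice and at 3.22, 3.76, 5.07 and 0.46 in BCC mice (1.83, SE 0.91, adjusted p = 0.389). Its groups overlapped through BCC mouse 8. Stfa2l1 (1.89, SE 1.5, adjusted p = 0.618) and Cstdc4 (2.94, SE 1.64, adjusted p = 0.452) stayed below 0.5 CPM in every healthy and BCC mouse. The value of Cstdc4 was 2.01 without BCC mouse 5 and 3.58 without healthy mouse 13. Over healthy skin as a whole Cstdc4 had 4 counts and Stfa2l1 had 9, too few to place a level. With only healthy and BCC mice in the fit, neither passed the low-count filter. The median log2 fold change of the 6 members was 3.49, against 0 for all genes, and the groups did not overlap for 3 members, against 6.65% of all genes.

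Hair phase differed between the mice and was checked beside these values, since growing hair fills skin RNA with follicle transcripts. As a score, the mean log2(CPM + 1) of 20 follicle genes active in hair growth was taken. It was 8.57 in BCC mouse 3, 2.04 to 3.19 in the other BCC mice and 4.32 to 9.63 in healthy mice. BCC mouse 3, whose score lay within the healthy range, had 60.9 CPM of Cstdc5, above every healthy mouse. With the score as a covariate Cstdc5 was at 4.62 (adjusted p = 0.00439), Cstdc6 at 4.69 (adjusted p = 0.00906) and Stfa3 at 3.2 (adjusted p = 0.0149). BCC mouse 3 is 1 animal, and the part of hair phase was not tested beyond this covariate.

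AFL-treated skin was then compared with untreated BCC skin, which was taken later after induction (130 to 144 against 80 to 126 days). Stfa2l1, Cstdc4 and Cstdc6 rose, 3 of 6 members, where 6.1% of all genes rose. Stfa2l1 and Cstdc4 passed the low-count filter through their levels in treated skin, so their calls describe them and support nothing further. Stfa2l1 was at 0.116, 0.235, 0.249 and 0.0817 CPM in BCC mice and at 2.73, 0.61 and 75.5 in AFL mice 2, 7 and 11. All 3 AFL mice were above all BCC mice, but mouse 11 was far above the other two. The log2 fold change of Stfa2l1 was 7.25 (SE 1.47, adjusted p = 0.0056).

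Cstdc4 moved with it, from 0.0869, 0.176, 0.435 and 0 CPM in BCC mice to 4.57, 1.07 and 52.7 after AFL (6.80, SE 1.45, adjusted p = 0.00784). Mouse 11 was again highest and mouse 7 lowest. Cstdc6 rose by 2.88 (SE 0.83, adjusted p = 0.0442), from between 0.463 and 9.73 CPM to 17.9, 41.9 and 46.3. Its relative Cstdc5 was at 274, 533.7 and 737.1 CPM after AFL and did not pass (2.54, SE 0.79, adjusted p = 0.0625).

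Nor did Stfa3, at 115.3, 203.3 and 214.7 CPM (2.27, SE 0.83, adjusted p = 0.116), or Stfa2, at 5.61, 11.5 and 53.2 CPM (2.91, SE 1.01, adjusted p = 0.1). The groups did not overlap for any of the 6 members, against 18.8% of all genes, and the median log2 fold change was 2.90 against -0.04. All 3 calls ended when AFL mouse 11 was left out. Without it 0 of 6 passed, with Cstdc4 at 3.96 (adjusted p = 0.0864) and Stfa2l1 at 3.23 (adjusted p = 0.0965), and Stfa2 was at 1.42. Cstdc6 moved little in value, to 2.60 in place of 2.88 (adjusted p = 0.168). The call of Cstdc6 also ended without BCC mouse 3 (2.77), 5 (2.90) or 8 (2.48) or AFL mouse 7 (2.74), and its value without BCC mouse 4 was 3.48. It ended as well without a low-count filter (adjusted p = 0.0611), with 1 library per mouse (adjusted p = 0.0536), with the hair score (2.58), with only the mice of these 2 groups (2.87) and with days since induction as a covariate (3.54). Without BCC mouse 5 Cstdc4 was at 7.73. The call of Stfa2l1 ended in limma voom (5.08, adjusted p = 0.0607) and with only the mice of these 2 groups (7.24, adjusted p = 0.0526). With days since induction as a covariate Stfa2l1 was at 9.51 and Cstdc4 at 9.28. The level in mouse 11 was alike in its 2 libraries, with 73.7 and 75.3 CPM of Stfa2l1 scaled by library size alone.

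The drug was compared with untreated BCC skin in the same way. All 6 members rose, where 8.03% of all genes rose, and no vismodegib mouse overlapped with a BCC mouse for any member, against 16.4% of all genes. Here too Stfa2l1 and Cstdc4 had passed the low-count filter through treated skin. Cstdc5 was at 1752, 789.8, 9717 and 1829 CPM in vismodegib mice 1, 6, 9 and 12, and rose by 5.31 (SE 0.86, adjusted p = 0.00118). Mouse 9 was highest and mouse 6 lowest. Stfa3 was at 794.8, 413.1, 5784 and 787.2 CPM (5.72, SE 0.92, adjusted p = 0.00116).

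Cstdc6 was at 127.3, 57.9, 713.3 and 130.0 CPM (5.74, SE 0.91, adjusted p = 0.00111). Stfa2 was at 57.2, 21.4, 242 and 40.1 CPM and also rose (4.85, SE 1.06, adjusted p = 0.00731). Every member was highest in mouse 9. Stfa2l1, at 2.02, 1.40, 25.0 and 4.23 CPM, rose by 5.56 (SE 1.36, adjusted p = 0.0135), and Cstdc4, at 1.26, 1.03, 20.7 and 3.18 CPM, rose by 5.21 (SE 1.35, adjusted p = 0.0175).

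Without mouse 9 the call of Cstdc4 ended (3.42, adjusted p = 0.0665), and the other 5 members, still called, were at 4.06 (Cstdc5), 4.47 (Cstdc6), 4.20 (Stfa3), 3.68 (Stfa2) and 3.92 (Stfa2l1). Without BCC mouse 4 Cstdc6 was at 6.34, and without BCC mouse 5 Cstdc4 was at 6.19. The calls of Cstdc4 and Stfa2l1 also ended without BCC mouse 8 (4.71, adjusted p = 0.0528, and 5.24, adjusted p = 0.0516) and in limma voom (4.77, adjusted p = 0.0523, and 4.50, adjusted p = 0.0649). The median log2 fold change was 5.44 against 0.05 for all genes. Scaling by library size alone moved the median of all genes to -0.3 and the 6 members to between 4.20 and 5.08. Vismodegib mouse 6, the lowest of its group for every member, had a growing-hair score of 8.57, and the other 3 had 1.51 to 2.18; the part of hair phase was not tested beyond the covariate.

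**Figure D3:**
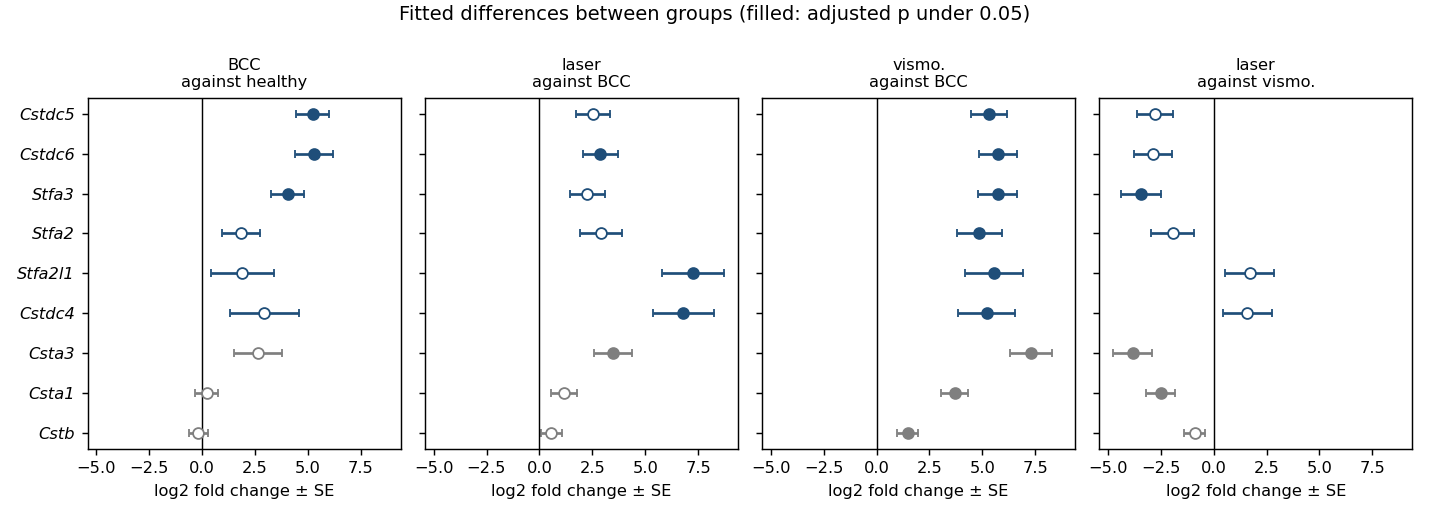
Log2 fold change with its SE for each member (blue) and for the related genes Csta3, Csta1 and Cstb (grey) in 4 comparisons; filled points have an adjusted p under 0.05. All 6 members are filled in vismodegib against BCC, 3 in BCC against healthy, 3 in laser against BCC and 1, Stfa3 at -3.45, in laser against vismodegib.

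Set directly against each other, the 2 treatments differed for 1 member. Stfa3 was lower after AFL than after vismodegib (-3.45, SE 0.94, adjusted p = 0.0303), 1 of 6 members where 2.46% of all genes were lower, and 0 of 6 were higher where 6.69% of all genes were. Cstdc5 (-2.77, adjusted p = 0.0534) and Cstdc6 (-2.86, adjusted p = 0.0549) did not pass, although for them and for Stfa3 every AFL mouse was below every vismodegib mouse, a separation found in 22.2% of all genes. Stfa2 was at -1.94 (adjusted p = 0.246). Stfa2l1 (1.70, adjusted p = 0.364) and Cstdc4 (1.59, adjusted p = 0.401) had the opposite sign and did not pass.

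These opposite signs rested on AFL mouse 11: without it Stfa2l1 was at -2.26 and Cstdc4 at -1.18, and Stfa2 was at -3.35. Without AFL mouse 2 Stfa2l1 was at 2.32. Without vismodegib mouse 9 the values were -1.53 for Cstdc5, -1.60 for Cstdc6, -0.79 for Stfa2, 3.32 for Stfa2l1 and 3.37 for Cstdc4. Cstdc5 (-3.11, adjusted p = 0.0274) and Cstdc6 (-3.19, adjusted p = 0.0303) passed without vismodegib mouse 6. The call of Stfa3 ended without any of AFL mice 2 (-3.14), 7 (-3.56) and 11 (-3.56) or vismodegib mouse 9 (-1.93, adjusted p = 0.0797). It ended too with days since induction as a covariate (-2.73, adjusted p = 0.25) and with only the mice of these 2 groups in the fit (-3.49, adjusted p = 0.0954).

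Against healthy skin all 6 members rose in both treated groups, through which Stfa2l1 and Cstdc4 had passed the low-count filter. After AFL, where 7.95% of all genes rose, log2 fold changes ran from 4.74 for Stfa2 (SE 1.0, adjusted p = 0.00603) to 9.74 for Cstdc4 (SE 1.57, adjusted p = 0.000682), and without AFL mouse 11 the call of Stfa2 ended (3.26, adjusted p = 0.0676) while Stfa2l1 was at 5.12 in place of 9.15 and Cstdc4 at 6.90. Without healthy mouse 13 Cstdc4 was at 10.38. After vismodegib, where 7.57% of all genes rose, they ran from 6.68 for Stfa2 (SE 1.06, adjusted p = 0.00111) to 11.01 for Cstdc6 (SE 1.06, adjusted p = 1.21e-05). Without vismodegib mouse 9 they ran from 5.47 for Stfa2 to 9.71 for Cstdc6, all still called, and without healthy mouse 13 Cstdc4 was at 8.80 in place of 8.16. Neither comparison had an overlapping member, against 25.7% and 16.1% of all genes. The values against BCC and against healthy skin share their treated mice, as both treatments share their controls.

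The members differed among themselves in their course over the 16 mice. Distance between genes was the root mean square difference of log2(CPM + 1) after each gene was centred on its own mean, in log2 units. Stfa2l1 and Cstdc4 were 0.27 apart, Cstdc5 and Stfa3 0.65 and Cstdc6 and Stfa3 0.66, whereas Cstdc4 and Cstdc5 were 2.92 apart. The members did not separate cleanly, since Cstdc6 lay nearer to Stfa2 (1.0) than to Cstdc5 (1.07). Leaving out AFL mouse 11 or vismodegib mouse 9, chosen after seeing the data, gave 2.99 and 2.87 for Cstdc4 and Cstdc5, and 0.25 and 0.27 for Cstdc4 and Stfa2l1. The distance includes the size of the swings, since the spread of log2(CPM + 1) was 3.83 for Cstdc5 and 1.67 for Cstdc4. It also depends on level, since the 1 added to each CPM flattens values below 1. Cstdc4 and Stfa2l1 lay there in every healthy and BCC mouse, and Cstdc6 in every healthy mouse. The fitted changes of Cstdc4 and Cstdc5 were 5.21 and 5.31 in vismodegib against BCC, and 6.80 and 2.54 in AFL against BCC. All 6 members had vismodegib mouse 9 as the highest of that group. The ratio of Stfa2l1 to Stfa2, whose coding sequences are 96.4% identical, was 1.42 in AFL mouse 11, 0.486 in AFL mouse 2 and 0.0529 in AFL mouse 7. In vismodegib mice it was 0.0352 to 0.105, so AFL mouse 7 lay within the vismodegib range.

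Other genes were then ranked by the same distance, with the members and genes that carry only a clone-like or Gm-number symbol left out. Among 13953 genes with a mean of at least 1 CPM, the one nearest to Cstdc5, Cstdc6 and Stfa3 was Krt16, a keratin of wounded and hyperproliferative epidermis, at distances of 1.28, 0.58 and 0.94. Krt16 was at 34.8 to 109 CPM in healthy skin, 112 to 487 in BCC, 978 to 3630 after AFL and 4350 to 15200 after vismodegib. For Stfa2l1 and Cstdc4 the nearest gene was Retnlg, a resistin-like gene of neutrophils, at 0.29 and 0.31. Retnlg was at 6.75, 1.59 and 117 CPM in AFL mice 2, 7 and 11 and at 2.53, 2.74, 31.5 and 4.13 in vismodegib mice 1, 6, 9 and 12. These are the same high mice as for Stfa2l1 and Cstdc4. Like them, Retnlg lay below 1 CPM in every healthy and BCC mouse, so these distances rest on the treated mice. In BCC against healthy skin Retnlg was at -1.07 (SE 1.1, adjusted p = 0.71). Stfa2l1 (1.89) and Cstdc4 (2.94) had the opposite sign there, and none of these genes passed. Next came Clec4e (0.51) and Mmp8 (0.55) for Stfa2l1, and Fpr2 (0.43) and Srgn (0.44) for Cstdc4, genes known from myeloid cells.

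**Figure D4:**
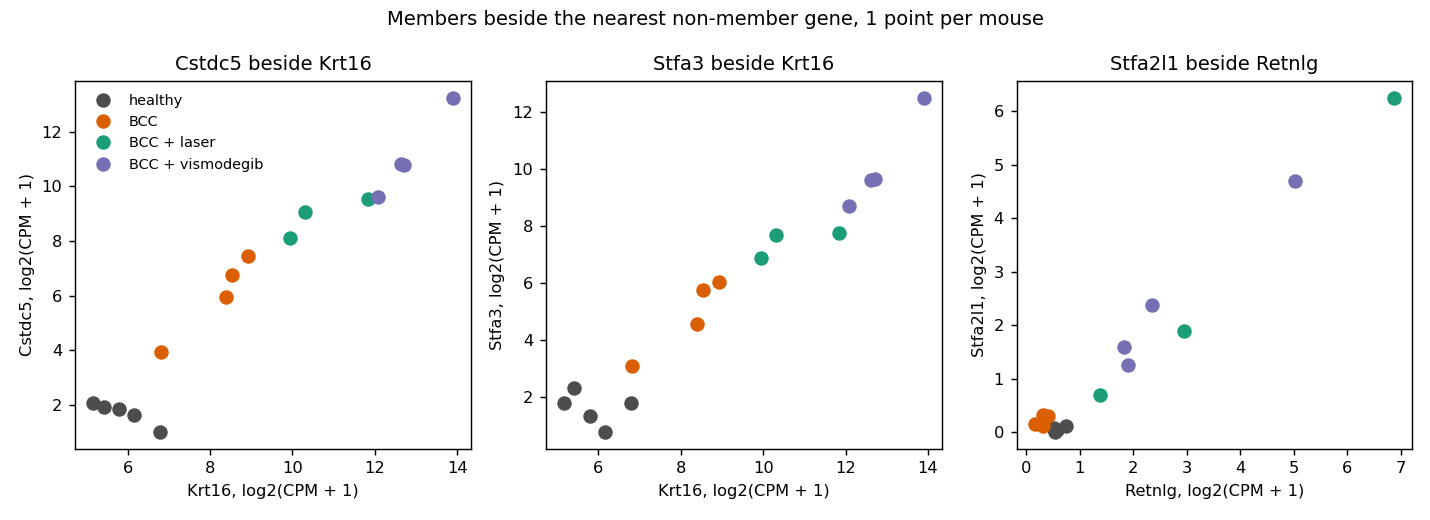
Log2(CPM + 1) of Cstdc5 and Stfa3 beside Krt16, and of Stfa2l1 beside Retnlg, with 1 point per mouse coloured by group. The highest Cstdc5 and Stfa3 points are a vismodegib mouse (9717 and 5784 CPM), and the highest Stfa2l1 point is a laser mouse (75.5 CPM).

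Stfa2 was 1.32 from Stfa2l1, 1.38 from Cstdc4, 1.0 from Cstdc6, 1.54 from Stfa3 and 1.91 from Cstdc5. Its nearest genes outside the cluster were Lcn2 (0.63), which encodes the iron-binding lipocalin 2 of neutrophils and inflamed epithelium, the epidermal protease gene Klk13 (0.72) and Lce3d (0.74), of the late cornified envelope. For the cluster sum the 10 nearest were Krt16 (1.14), Teddm3 (1.31), S100a9 (1.43), Krt6b (1.43), Sprr2d (1.47), S100a8 (1.48), Gsdmc (1.5), Il1f6 (1.51), Serpinb3b (1.52) and Sprr2a1 (1.54). Distances shrink for genes with little spread, and that of Stfa2l1 was 1.78.

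Markers of the cell types that the skin could hold were read beside the members. Some lists moved with the members and others did not, and the part of these cell types in the results was not tested. In bulk skin, more cells of a type and more RNA per cell cannot be told apart. Of 23 neutrophil genes tested, 16 rose and 0 fell after AFL and 17 rose and 0 fell after vismodegib, each against BCC, and 0 rose and 1 fell in BCC against healthy skin. Their summed CPM was 136 to 246 in healthy skin, 107 to 260 in BCC, 393 to 3750 after AFL and 2630 to 50600 after vismodegib. In vismodegib mouse 9, S100a8 (23300 CPM) and S100a9 (25900 CPM), calprotectin genes of neutrophils and of inflamed epidermis, made up most of that sum. Without this pair, left out after their values were seen, the sum was 125 to 239 CPM in healthy skin, 86.9 to 166 in BCC, 336 to 1810 after AFL and 266 to 1420 after vismodegib. Neutrophil genes differed in their order: Retnlg was at 41.6 ± 64.9 CPM after AFL (n = 3) and 10.2 ± 14.2 after vismodegib (n = 4), and Cxcr2 at 41.3 ± 56.9 and 57.1 ± 25.6, both within the spread. The defining marker Ly6g was at 0 in every healthy and BCC mouse, at 0.0951, 0.0305 and 1.86 CPM in AFL mice 2, 7 and 11, and at 0.205, 0.152, 1.70 and 0.534 in vismodegib mice 1, 6, 9 and 12. The chemokine receptor gene Cxcr2 was at 0.35 to 0.769 CPM in healthy and 1.91 to 5.29 in BCC mice (2.51, SE 0.69, adjusted p = 0.0693), and S100a9 at 1.49 to 7.13 and 8.63 to 63.0 (3.42, SE 1.08, adjusted p = 0.128).

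Of 18 wound keratinocyte genes, 8 rose in BCC against healthy skin, 4 after AFL and 14 after vismodegib against BCC, and none of them fell in these comparisons. Their summed CPM was 1960 to 6950 in healthy skin, 3290 to 9720 in BCC, 7100 to 21900 after AFL and 25100 to 74100 after vismodegib. All 14 macrophage and monocyte genes rose after AFL and 7 after vismodegib, each against BCC, with summed CPM of 3770 to 5310 and 718 to 2810. In BCC the sum was 388 to 750, so the vismodegib range overlapped with it. Of 14 suprabasal keratinocyte genes 1 rose after AFL and 6 after vismodegib against BCC, of 9 basal ones 0 and 1, of 8 mast cell genes 4 and 2, and of 8 fibroblast genes 0 and 0. No gene of these 4 lists or of the macrophage list fell after AFL. After vismodegib the collagen genes Col1a1 (-2.80, SE 0.55, adjusted p = 0.00368) and Col1a2 (-2.25, SE 0.48, adjusted p = 0.00597) and the basal gene Lamb3 (-1.0, SE 0.27, adjusted p = 0.0222) fell against BCC. The basal gene that rose was Krt14 (2.10, SE 0.40, adjusted p = 0.00286). Summed over the basal list, CPM was 9970 to 18700 in BCC, 12600 to 23700 after AFL and 23700 to 44700 after vismodegib.

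Papain-like cathepsins, the proteases that stefins inhibit, were read from a list of 11 genes that also holds legumain (Lgmn), a protease of another family that is not a known stefin target. None of the 11 changed in BCC against healthy skin, with a median of -0.15. After AFL against BCC 7 rose and 0 fell (median 1.49), and without legumain 6 of 10 (median 1.42). Cathepsin L (Ctsl) was at 2.51 (SE 0.24, adjusted p = 1.97e-05), cathepsin B (Ctsb) at 2.03 (SE 0.28, adjusted p = 0.000232) and legumain at 2.94 (SE 0.22, adjusted p = 6.06e-06). After vismodegib against BCC 3 rose and 2 fell (median 0.28), and without legumain 2 rose and 2 fell (median 0.12). Summed over the list, CPM was 2020 to 2530 in BCC, 8370 to 9180 after AFL and 2400 to 3460 after vismodegib.

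Untreated BCC skin had 296 ± 18.7 CPM of Ctsl (n = 4). The laser-treated mice had 1690 ± 274 (n = 3) and the vismodegib-treated mice 502 ± 112 (n = 4). Set against Cstdc5, which was at 88.7 ± 67.5, 514.9 ± 232.1 and 3522 ± 4157 CPM in the same groups, the protease had its highest mean after AFL and this inhibitor after vismodegib. The means of Cstdc6, Stfa2 and Stfa3 were also highest after vismodegib. Those of Stfa2l1 and Cstdc4 were highest after AFL, like the protease, at 26.3 ± 42.6 and 19.5 ± 28.9 CPM (n = 3) against 8.16 ± 11.3 and 6.55 ± 9.49 after vismodegib (n = 4), within the spread.

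Relatives inside and beside the cluster were read in the same way. Csta3, which lies within the cluster but does not carry a member's symbol, rose after AFL (3.47, SE 0.90, adjusted p = 0.0261) and after vismodegib (7.30, SE 0.98, adjusted p = 0.000386) against BCC, from 0.14 ± 0.0888 CPM to 1.55 ± 1.40 and 22.4 ± 30.8. Csta1, next to the cluster, was at 42.3 ± 5.48 CPM in healthy skin and rose after vismodegib (3.69, SE 0.63, adjusted p = 0.00162) but did not pass after AFL (1.18, adjusted p = 0.288). Stefin B (Cstb), on another chromosome, rose after vismodegib by 1.47 (SE 0.48, adjusted p = 0.0448), from 218.8 ± 77.7 to 605.5 ± 503.7 CPM.

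Among flanking genes of other families, Fam162a rose after vismodegib against BCC (2.76, SE 0.52, adjusted p = 0.0028), whereas Ccdc58 (1.35, adjusted p = 0.0591), Casr (-0.35), Cd86 (0.84) and Ildr1 (-0.77) did not pass. None of these 5 passed after AFL against BCC. Of 9 other cystatin superfamily genes tested, among them Csta1, Csta3 and Cstb, 3 rose after AFL and 4 after vismodegib against BCC, and 0 fell. Besides Csta3, the 3 after AFL were the secreted cystatin-like genes Fetub (2.48, SE 0.52, adjusted p = 0.00714) and Kng2 (3.20, SE 0.71, adjusted p = 0.00995).

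The sequence before each RefSeq start was also compared. Whether it bears on the distances between members, which depend in part on level, was not tested. RefSeq promoter windows on GRCm38.p6 were matched for 5 of the 6 members, all but Cstdc6. Each stretch below ends 3 bases after a TTTAAA element, in capitals, which begins 9 to 33 bases before the start that RefSeq annotates.
Stfa2l1: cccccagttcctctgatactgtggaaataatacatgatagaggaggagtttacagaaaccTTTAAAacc
Cstdc4: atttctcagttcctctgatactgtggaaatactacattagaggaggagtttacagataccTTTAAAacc
Stfa2: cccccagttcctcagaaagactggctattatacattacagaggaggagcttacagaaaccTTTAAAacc
Cstdc5: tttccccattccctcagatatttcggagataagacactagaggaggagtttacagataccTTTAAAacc
Stfa3: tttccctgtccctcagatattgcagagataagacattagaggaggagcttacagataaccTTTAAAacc

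They lie at chr16:36156718-36156786 (Stfa2l1) and chr16:36184123-36184191 (Cstdc4) on the plus strand, and at chr16:36408384-36408452 (Stfa2), chr16:36367571-36367639 (Cstdc5) and chr16:36455415-36455483 (Stfa3) on the minus strand. The RefSeq starts differ from those of GENCODE, and the stretches of Cstdc5 and Stfa2 lie inside the GENCODE transcripts given above. Identity was 88.6% between Cstdc5 and Stfa3 and 87.3% between Cstdc4 and Stfa2l1. Among these 5 genes these are also the pairs with the smallest distance over the 16 mice, and a link between them was not tested. The stretches were placed by an element chosen after the sequences were seen. The other 8 pairs ran from 73.2% for Cstdc5 and Stfa2 to 84.1% for Stfa2 and Stfa2l1, the pair closest in coding sequence, with 81.2% for Cstdc4 and Cstdc5. TTTAAA, chosen after the sequences were seen, occurs on either strand in 13.2% of 32851 windows of the same length, and the TATAAA form of the TATA box in 13.6% of them but in none of the 5. The C/EBP motif TTGCNCA was in the windows of Stfa2l1, Cstdc4, Cstdc5 and Stfa2 and in 13.6% of all windows. The PU.1 core GAGGAA was in all 5 and in 28.3% of all windows. The AP-1 motif TGANTCA was found 2 times in Stfa3 and in no other member's window, and in 7.8% of all windows. Motifs were searched on both strands and a match is a description of letters, not a site.

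Cstdc2, the row on chromosome 2, was higher in BCC than in healthy skin, with no overlap (at least 0.0933 against at most 0.0578 CPM). These groups likewise did not overlap for 3 of the 6 cluster members and for 6.65% of all genes tested. Unlike the cluster sum, Cstdc2 was not higher again after treatment. Its mean was highest in BCC, at 0.352 ± 0.296 CPM (n = 4), against 0.0175 ± 0.0259 in healthy skin (n = 5). In laser-treated skin it was 0.0682 ± 0.0787 (n = 3) and in vismodegib-treated skin 0.0469 ± 0.0443 (n = 4). Its 67 counts were too few for the test. Stfa1 had 0 counts in healthy and BCC skin, 3 after AFL and 5.97 after vismodegib.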

How the data were processed

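Per the submitters' processing notes the authors used Bowtie2 and RSEM with GRCm39, and deposited expected counts per gene, not normalised. For versions, annotation and strand setting, the entry is: not given in the sources used here. Without a strand setting a gene and an antisense partner cannot be told apart. The library preparation selected poly-A RNA with oligo dT, per the labels' protocols. All 19 columns matched a sample. Expected counts were rounded, and the paired libraries of mice 11, 12 and 16 were summed, which gave 16 mice. The labels give the libraries of mouse 16 different ages, so its 2 libraries rest on the mouse number. Library totals were 27185921 to 33556611 counts. In edgeR 4.0.16 (R 4.3.3), filterByExpr left 15760 genes and removed 2761. All groups entered a quasi-likelihood fit with TMM scaling, and 6 contrasts were adjusted by Benjamini-Hochberg over all genes, with a threshold of 0.05. The fit was tested on simulated data. The text names all members, the 3 genes nearest to each and 10 nearest to the sum, neighbours, and from each of 10 gene lists the counts and the 3 smallest p in AFL against BCC; not every gene so named is reported. The members and lists were chosen with earlier results of these data known. Alternatives were DESeq2 1.42.0, limma 3.58.1 voom, other scalings and filters, libraries as replicates, covariates, a replicate block and leaving out each mouse. Days since induction as a covariate, distances without 1 mouse and 2 shortened gene lists were added after seeing the data. Mice are separate animals per the labels. Shared replicate numbers were not used to pair the mice in the main fit.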

Additional observations from a re-analysis of the deposited data

Results flagged for a closer look

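Vismodegib mouse 9 lay far above the other 3 mice of its group for every member. The gap to its nearest neighbour, as a share of the group's range, exceeded Dixon's critical value of 0.829 in each case. The values were 9717 CPM for Cstdc5 (share 0.884), 5784 for Stfa3 (0.929), 713.3 for Cstdc6 (0.89), 242.0 for Stfa2 (0.838), 25.01 for Stfa2l1 (0.88), 20.71 for Cstdc4 (0.891) and 16500 for the cluster sum (0.901). Of 21 group values checked 7 stood apart, all from this mouse, and the members share reads and RNA, so these are not 7 separate signals. Chance flags about 1 in 20 groups of normally distributed values. The check was run on CPM without a log, whose SD exceeded the mean in the vismodegib group, so that rate need not hold here. It was not run on a log scale. Groups of 3, such as AFL, cannot be checked in this way.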

How the results depend on the processing

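The members called in BCC against healthy skin (3), vismodegib against BCC (6) and both treatments against healthy skin (6 each) stayed within 1.5 times those counts under every alternative tried. In AFL against BCC the 3 calls became 5 in DESeq2, 5 with all 19 libraries as replicates and 1 with only the 2 groups in the fit, and 0 to 3 when a mouse was left out. In AFL against vismodegib the 1 call became 3 in DESeq2, 3 with all 19 libraries, 2 in limma voom, 3 with the growing-hair covariate, 0 with only the 2 groups, 0 with days since induction as a covariate, and 0 to 3 when a mouse was left out. Without AFL mouse 11, Cstdc4 (-1.18) and Stfa2l1 (-2.26) reversed in AFL against vismodegib, where leaving out vismodegib mouse 9 gave 3.37 and 3.32. The cause was not tested. Library size alone moved the median of all genes to -0.3 in vismodegib against BCC, -0.25 in vismodegib against healthy skin, -0.18 in AFL against BCC and 0.16 in AFL against vismodegib, and no member changed direction under it. Of 700 member values under alternatives, 651 kept direction and call, 27 lost a call, 20 gained one and 2 reversed. The replicate block gave 5 calls in AFL against BCC and 4 in AFL against vismodegib. Of 21 pairs of mice with the same number 7 correlated above 0.1 (r from -0.658 to 0.788), and pairs with unlike numbers ran from -0.862 to 0.888. Same-number pairs thus did not stand apart. Hair phase also differed between the mice, so this check cannot exclude a shared batch. Counts limit Cstdc4 and Stfa2l1, which had 4 and 9 counts over all healthy libraries.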
